A study of Vitis vinifera and Vitis riparia and Vitis amurensis with 189 samples.

Results

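The late phase of bud opening in Vitis riparia was compared between day 10 and day 5 at room temperature. The comparison holds 6 of the 189 libraries of the series, the 3 replicates of each day, chosen by the species, day and replicate number in their titles. V. riparia is the riverbank grape, a wild North American species that withstands deep winter cold. All 6 libraries came from dormant buds of genotype PI588275, taken from clonal vines kept outdoors in a germplasm collection of cold hardy grapevines. Canes were pruned in the dormant state, cut to pieces with a single node and stood in cups of water indoors, and buds were frozen on successive days until budburst was seen. The buds of day 5 and day 10 therefore share genotype, site and handling and differ in their time in the warmth. They received no other treatment. The series as a whole addressed gene regulation in wild and cultivated grapevines as buds lose cold hardiness and open.

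A grapevine bud holds preformed shoots with leaves and often flower clusters, enclosed in scales. After enough winter chilling, warmth makes the bud lose its cold hardiness, a process called deacclimation, and then swell and open. The labels call the tissue dormant bud on every day, and they do not stage the single buds. A bulk library measures all tissues of a bud together, so fewer cells of a type and less RNA per cell cannot be told apart. The gene identifiers, of the Vitvi form, matched no entry of the available gene table, so genes stand without names or roles, and the tissue was not checked against marker genes.

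The libraries of days 5 to 12, with 3 replicates a day, held 2040794 to 21262793 gene counts and between 19569 and 26534 genes with a count. Day 5 held 5182562, 8810340 and 2040794 counts in replicates 1, 2 and 3, and day 10 held 9952868, 9524217 and 11306593. A count of 0 therefore allowed up to 1.47 CPM (counts relative to the size of the library) in the shallowest of these 6 libraries and 0.265 CPM in the deepest, which covers counting error only. These bounds use the raw library size, while the CPM values below use a normalized one. Day 5 replicate 3 stood apart. It was the shallowest library, 35.6% of its records lay outside annotated genes against 14.5% and 15.1% in replicates 1 and 2, and it correlated at 0.873 and 0.893 with them over log2 CPM while they correlated at 0.972 with each other. Day 10 replicate 1 also differed from replicates 2 and 3, with correlations of 0.937 and 0.906 against 0.978. On a second principal component, which held 14.2% of the variance of the 24 libraries, both lay on the same far side, as did day 7 replicate 3 and day 11 replicate 1. Genes that separate V. riparia from the other genotypes on other days put 96.0% to 99.6% of their counts on the V. riparia side in all 6 libraries.

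Between day 5 and day 10 much of the measured transcriptome changed level. Of 20055 genes tested, 6703 (33.4%) passed edgeR's quasi-likelihood test at a Benjamini-Hochberg adjusted p under 0.05. Of these, 3810 (19%) were higher at day 10 and 2893 (14.4%) were lower. The median change over all genes tested was 0.06 on the log2 scale, which the normalization centres near 0, so all changes are relative to the bulk of genes. A fold of at least 2 was reached by 5679 of the genes called (28.3% of those tested). The labels do not say whether replicates came from separate canes or vines, so p-values measure the spread between these libraries, which may be technical. Without day 5 replicate 3 the test called 5609 genes, 3238 higher and 2371 lower. Without day 10 replicate 2 it called 4555, and the count of lower genes dropped most, to 1546 against 3009 higher. Without the 4 libraries that stood apart it called 4796.

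Among the genes called, rises were larger than falls at the median, with no matching for transcript level. The genes called higher had a median log2 fold change of 1.93 (quartiles 1.30 and 3.15), and those called lower had a median of -1.51 (quartiles -2.18 and -1.06). Among the rising genes 1818 rose at least 4-fold and 613 at least 16-fold. Among the falling genes 886 fell at least 4-fold and 89 at least 16-fold. In 111 of the rising genes all day 5 libraries were at 0 counts, which makes their fitted fold depend on the fitting. With these genes set to the bound that 3 counts over the day's summed libraries allow, the median rise stayed at 1.93, and 536 genes were at least 16-fold higher. The falling genes included 7 with no count at day 10, and 85 were at least 16-fold lower with the same bound. The histogram of changes shows the long right tail.

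**Figure D1:**
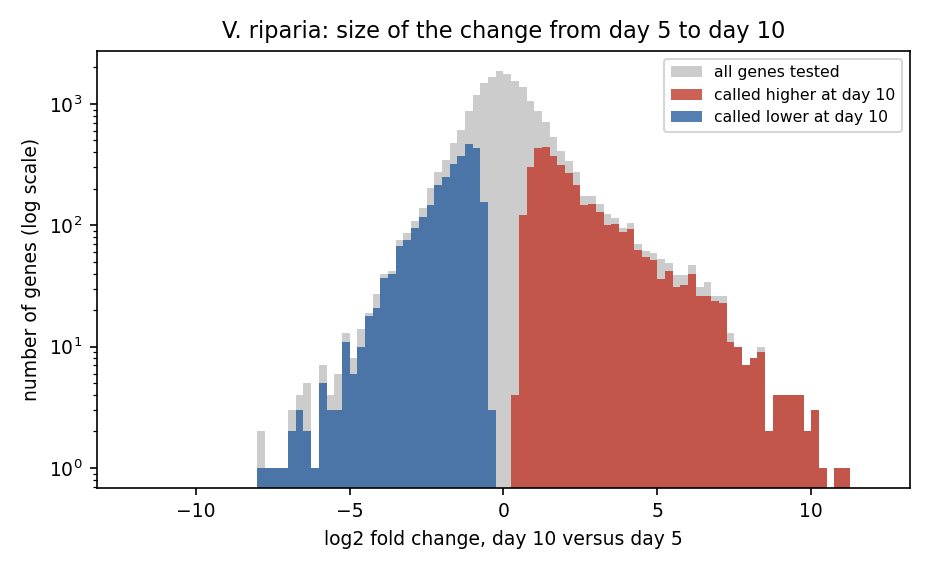
Number of genes (log scale) by log2 fold change from day 5 to day 10 in V. riparia, for all 20055 genes tested (grey), the 3810 called higher at day 10 (red) and the 2893 called lower (blue). The red tail runs past a log2 fold change of 10, while the blue one ends near -8.

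The rising genes were scarcer transcripts than the falling ones. Their median log2 CPM over the 6 libraries was 3.74, and that of the falling genes was 4.84. In the lowest quartile group of genes by level, 18.6% were called higher and 8.52% lower. In the highest quartile group, 15.8% were called higher and 19.6% lower. From the lowest to the highest group, the median absolute log2 fold change of called genes was 3.09, 1.93, 1.34 and 1.29. Among called genes size therefore went with level. Only genes past the threshold entered these medians, and the fold needed to pass may itself depend on level, which was not tested. Whether rises exceeded falls at equal level was also not tested. Genes with no count in any library of a day were found at both ends, 111 at day 5 and 7 at day 10 among the genes called. At day 10, 69 genes had at least 10 counts in each library and 0 counts in every day 5 library, and the most abundant of them averaged 34.8 CPM at day 10. No gene met the reverse criterion, which asked more of the shallower day 5 libraries. The day 10 libraries summed to 30783678 counts and those of day 5 to 16033696, so a scarce transcript was more easily seen at day 10.

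The message pool shifted accordingly. The genes called higher took 8.63%, 8.68% and 6.85% of gene counts in the day 5 libraries and 31.2%, 29.7% and 25.9% in the day 10 libraries. The genes called lower took 31.7%, 32.2% and 34.2% at day 5 and 9.31%, 10.2% and 12.2% at day 10. These shares describe the genes that the comparison chose and carry no test. The share of the most abundant transcripts of each library was lower at day 10. The 10 most abundant genes of a library held 8.88% ± 2.67 of its counts at day 5 and 2.15% ± 0.491 at day 10 (SD, n = 3 each). The values did not overlap, and the exact two-sided permutation test gave p = 0.1, the smallest that 3 against 3 libraries allow. The 100 most abundant genes held 19.9% ± 4.27 at day 5 and 12% ± 2.25 at day 10, again with an exact permutation p = 0.1. The lists of the 100 genes with the highest mean on each day had 36 genes in common. Tested genes at 1 CPM or more numbered 17667 ± 274 at day 5 and 18414 ± 153 at day 10 (SD, n = 3, exact permutation p = 0.1). That cut lies below the 1.47 CPM that a count of 0 allowed in day 5 replicate 3, so these numbers depend on depth. The share of records outside annotated genes was 21.7% ± 12 at day 5 and 11.2% ± 0.171 at day 10 (SD, n = 3), with an exact permutation p = 0.1. Without day 5 replicate 3 the difference dropped from -10.5 to -3.58 points. With that share as a covariate the late change counted 5582 genes.

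**Figure D2:**
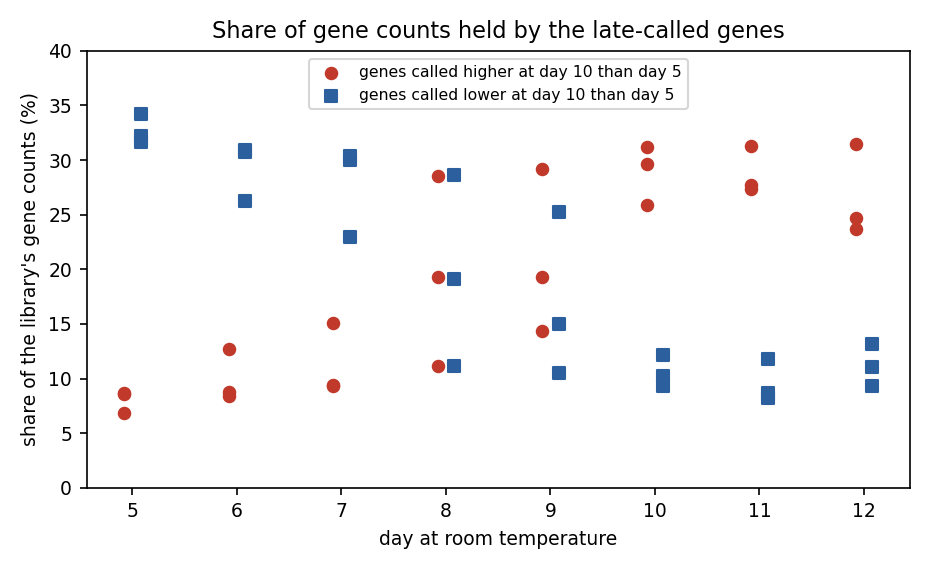
Share of each library's gene counts (%) held by the genes called higher (red circles) or lower (blue squares) at day 10 than at day 5, for the 3 V. riparia libraries of each day from 5 to 12. The genes were chosen on days 5 and 10, and the shares cross over on days 8 and 9, where single libraries lie far apart.

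The late calls were set beside a comparison of other libraries of the same course. The libraries of days 6, 7, 11 and 12 were not contrasted in calling the late change, but they shared its filter, normalization and estimate of spread, and a fit of the 6 libraries of days 5 and 10 alone called 5332 genes. Days 11 and 12 were compared with days 6 and 7 in a fit of their own, and 10004 of 19327 genes were called (51.8%), 4993 higher and 5011 lower. Among genes tested in both fits, 5803 were called in the same direction in both, which is 88% of the 6593 late calls and 58% of the 10004 others. Only 3 genes were called in opposite directions. Of the genes that rose from day 5 to day 10, 85% were called higher in this comparison, where 25.8% of all genes were. Of the genes that fell, 92% were called lower, where 25.9% of all genes were. Their median log2 fold changes in these other libraries were 1.45 and -1.32.

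To place every library between the early and the late state, the genes called in days 11 and 12 against days 6 and 7 were averaged by sign on the log2 CPM scale. On this position 0 is the mean of days 6 and 7 and 1 the mean of days 11 and 12, and the libraries of days 5, 8, 9 and 10 chose none of its genes. The day 5 libraries lay at -0.0681, -0.0821 and -0.156, and the day 10 libraries at 0.896, 0.921 and 0.761. The means were -0.102 ± 0.0470 and 0.859 ± 0.0863 (SD, n = 3), with no overlap and an exact permutation p = 0.1, the smallest possible. On day 8 the libraries lay at 0.887, 0.0102 and 0.368. They spanned nearly the whole range between the days before and after. On day 9 they lay at 0.198, 0.587 and 0.938. The SD over libraries was 0.441 on day 8 and 0.370 on day 9, against 0.0470 on day 5 and 0.0863 on day 10. On days 6, 7, 11 and 12 it was 0.122, 0.168, 0.154 and 0.135. The libraries of those days chose the genes, which may have lowered their spread.

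**Figure D3:**
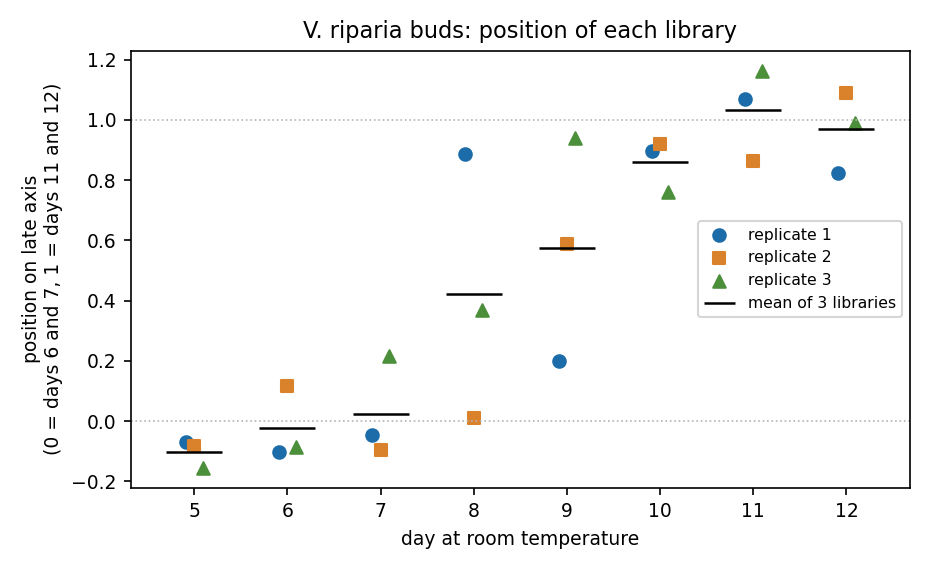
Position of each V. riparia library (points, by replicate number) and the day mean (bars) against day at room temperature, on a scale from 0 (mean of days 6 and 7) to 1 (mean of days 11 and 12). The day 5 libraries lie below 0 and the day 10 libraries between 0.761 and 0.921, and on days 8 and 9 the 3 libraries of a day are spread between them.

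The spread between replicates was also read gene by gene, as a description. On day 8 the median SD over replicates was 0.682 on the log2 CPM scale for the genes called between day 5 and day 10 and 0.389 for the others. On day 9 it was 0.603 and 0.404. At the ends of the interval the order was the reverse, with 0.421 and 0.530 on day 5 and 0.343 and 0.419 on day 10, and those libraries had served to call the genes. On days 6 and 12 the called genes also spread more than the others, at 0.356 against 0.283 and 0.336 against 0.302. They spread less on days 7 and 11, at 0.457 against 0.519 and 0.398 against 0.454.

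Among called genes of 2-fold or more, the midpoint between day 5 and day 10 was crossed most often on day 8. For this the change was taken from the day means of log2 CPM, not from the fit, which leaves slightly fewer called genes at 2-fold or more. Of 3379 such rising genes, the day mean first passed the midpoint and stayed past it on day 8 in 2134 (63.2%), on day 9 in 631 and on day 7 in 246. Of 2238 such falling genes, 1050 (46.9%) passed it on day 8, 765 on day 9 and 40 on day 7. Only on day 10 was it passed by 300 (8.88%) of the rising and 377 (16.8%) of the falling genes. The median rising gene had covered a share of 0.231 of its change by day 7, 0.620 by day 8 and 0.718 by day 9. The median falling gene had covered 0.159, 0.519 and 0.679. On day 12 the median share was 1.0 for the rising genes (quartiles 0.867 and 1.11) and 0.976 for the falling genes (quartiles 0.829 and 1.13). Day 10, which served to call the genes, is 1 on this scale. The day means of days 8 and 9 average libraries that lay far apart, so these values do not describe the course of a single bud.

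No single step from a day to the next carried the change past the test. edgeR's quasi-likelihood test called 0 genes for day 6 against 5, day 8 against 7, day 9 against 8, day 10 against 9 and day 12 against 11. At an unadjusted p under 0.05 these steps held 395, 1836, 871, 782 and 315 genes, and DESeq2 called 4, 58, 6, 1 and 6. The steps from day 6 to 7 and from day 10 to 11 gave 1 gene each (0.00499% of those tested), as did day 12 against day 10. DESeq2 called 18, 13 and 12 in these. Genes whose mean on days 7 and 8 lay beyond both ends in the same direction numbered 0 by edgeR and 2 by DESeq2. Against day 5, edgeR's count was 0 on days 6 and 7 (395 and 784 genes at an unadjusted p under 0.05, and 4 and 38 by DESeq2), 576 (2.87%) on day 8, 2247 (11.2%) on day 9, 7835 (39.1%) on day 11 and 7002 (34.9%) on day 12. These counts share the day 5 libraries. On day 8, 542 of the genes called were higher and 34 lower, and on day 9, 1601 were higher and 646 lower. The counts of days 8 and 9 rested on single libraries. Without any 1 of the day 5 libraries the day 8 count was 0, and without day 8 replicate 1, 2 or 3 it was 2, 2484 or 3. The day 9 count was 497, 696 or 6 without day 5 replicate 1, 2 or 3, and 4773, 788 or 4 without day 9 replicate 1, 2 or 3. DESeq2 called 1791 genes on day 8 and 3743 on day 9. The day 12 count was 4354 without day 12 replicate 2. When libraries with over 25% of records outside annotated genes were left out, the counts were 0 on days 8 and 9, 3433 on day 11 and 1166 on day 12.

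A pair of genes with the largest rises and a pair with the largest falls show the size of the change. They were taken from called genes with a mean log2 CPM of 3 or more and at least 3 counts in each library. Overlap between the days was also excluded, so their separation and their passing the test were set by the choice. Of all genes tested, 26% lay higher at day 10 without overlap, and 19.7% lay lower. Vitvi07g00352 stood at 0.989, 1.51 and 3.46 CPM in the day 5 libraries and at 431, 506 and 348 CPM in those of day 10. All day 10 libraries lay far above all day 5 libraries, and the log2 fold change was 7.97 ± 1.35 (SE), a 251-fold rise with an adjusted p = 0.00148 by edgeR's quasi-likelihood test with Benjamini-Hochberg adjustment. The day 5 values rested on 5, 13 and 6 counts. Vitvi18g00510 stood at 1.39, 1.39 and 6.91 CPM on day 5 and at 479, 457 and 354 CPM on day 10. The change amounted to 7.39 ± 1.40 on the log2 scale (SE), with an edgeR adjusted p = 0.00177, and 8.26 without day 5 replicate 3, which was its highest day 5 library. On day 8 the same genes lay at 474, 49.7 and 149 CPM and at 372, 42.7 and 169 CPM in replicates 1, 2 and 3. Replicate 1 was near the day 10 level, and replicate 2 was far below it.

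Vitvi18g02423 fell from 168, 309 and 1179 CPM on day 5 to 2.39, 0.880 and 6.87 CPM on day 10. This was a log2 fold change of -7.32 ± 1.63 (SE), with an edgeR adjusted p = 0.00321. The highest day 5 value again came from replicate 3, and without that library the change was -6.11, while without day 10 replicate 3 it was -8.40. Vitvi06g00561 fell from 159, 211 and 1112 CPM to 3.86, 2.05 and 5.99 CPM. Its log2 fold change was -6.94 ± 1.34, with an edgeR adjusted p = 0.00184, and -5.53 without day 5 replicate 3. On day 8 these genes lay at 6.81, 301 and 31.0 CPM and at 8.44, 129 and 16.5 CPM. The library highest in the rising pair on day 8 was the lowest in the falling pair. All 4 genes were also called in days 11 and 12 against 6 and 7, with log2 fold changes of 5.02 ± 0.87 and 3.89 ± 0.86 for the rising pair and -5.22 ± 0.70 and -4.48 ± 0.58 for the falling pair (SE).

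**Figure D4:**
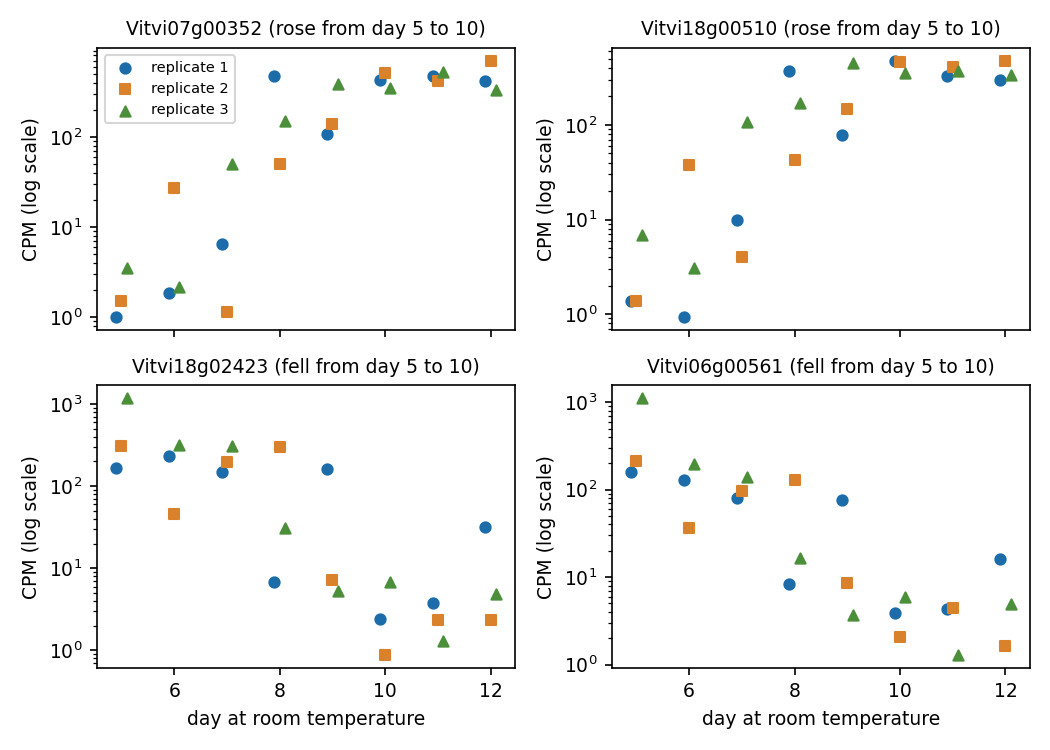
CPM (log scale) of Vitvi07g00352 and Vitvi18g00510, which rose from day 5 to day 10, and of Vitvi18g02423 and Vitvi06g00561, which fell, in each V. riparia library of days 5 to 12 (symbols give the replicate number). Day 8 replicate 1 lies near the day 10 values in all 4 genes, and day 8 replicate 2 lies nearer those of day 7.

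The late change was set beside the change of the first days in the warmth. Day 3 against day 0, in libraries of their own, called 7203 of 17589 genes (41%), 3715 higher (21.1%) and 3488 lower (19.8%). Of the 5673 late calls that were tested in both, 1513 had been called in the same direction early (26.7% of the late calls and 21.4% of the early ones), and 1020 in the opposite direction (18% and 14.5%), or 667 without day 10 replicate 2. Both fits tested 2845 of the 3810 genes that rose late and 2828 of the 2893 that fell late, so more of the rising genes are missing here. Of the rising genes tested in both, 27.7% had risen early, where 21.5% of all genes had, and 16% had fallen early, where 19.3% of all genes had. Of the falling genes tested in both, 25.7% had fallen early and 20% had risen. No early call was made for 1603 of these rising genes and for 1537 of these falling genes. Vitvi18g02423 and Vitvi06g00561 were already lower on day 3 than on day 0, with log2 fold changes of -2.20 ± 0.39 and -1.47 ± 0.42 (SE), with edgeR adjusted p = 0.000662 and 0.0123. Vitvi18g00510 changed by 0.37 ± 0.65, with an edgeR adjusted p = 0.678.

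V. amurensis, the Amur grape, is the other wild species of the series, here as genotype PI588635 from the same collection. Over the same days fewer genes were called in it than the 6703 of V. riparia. The V. riparia count came from the fit of days 5 to 12, so the counts rest on different fits. In a fit of both species, 1805 of 20617 genes (8.75%) were called in V. amurensis, 1039 higher (5.04%) and 766 lower (3.72%). That count was 718 without its day 5 replicate 3, 1039 without its day 5 replicate 2 and 1136 without its day 10 replicate 3. Of the V. riparia late calls tested in both, 694 were called in the same direction in V. amurensis (10.4% of the V. riparia calls and 42.9% of the V. amurensis calls). In the opposite direction 149 were called (2.24% and 9.21%). Of the genes that rose in V. riparia, 8.77% were called higher in V. amurensis, where 4.45% of all genes were. Of those that fell, 12.7% were called lower, where 3.82% of all genes were. The change itself differed between the species in 2769 genes (13.4%), with 1913 (9.28%) more positive and 856 (4.15%) more negative in V. riparia. This count was 1799 without V. amurensis day 5 replicate 2 and 1832 without V. riparia day 10 replicate 2. In 1146 of the 2769 both species moved the same way with the larger change in V. riparia, in 84 with the larger change in V. amurensis, and in 1539 the fitted changes had opposite signs. The signs were taken at any size and without a test, so the 1539 include genes with a V. amurensis change near 0. The median absolute log2 fold change was 0.78 in V. riparia and 0.44 in V. amurensis. On the position scale V. riparia moved by 0.960 and V. amurensis by 0.352, and over day 7 to 12 Cabernet Sauvignon moved by 0.915 and Riesling by 0.634. The scale rests on genes called in V. riparia and on V. riparia days, so these values are a description.

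The named genes, chosen for their change in V. riparia, had the following levels in V. amurensis, and the species were not tested against each other at day 5. Vitvi07g00352 stood at 337 ± 164 CPM in V. amurensis on day 5 and at 587 ± 151 CPM on day 10 (SD, n = 3). Vitvi18g00510 was at 200.5 ± 17.6 and 265 ± 26.2 CPM. The differences in change between the species were 7.17 ± 0.66 and 7.01 ± 0.65 on the log2 scale (SE), with edgeR adjusted p = 3.11e-05 and 3.28e-05. Vitvi06g00561 was at 16.9 ± 13 CPM on day 5 and 5.72 ± 4.41 on day 10 in V. amurensis, and its change differed by -5.51 ± 1.14 (SE, edgeR adjusted p = 0.0065). Vitvi18g02423 was at 14.9 ± 14.3 and 0.876 ± 0.865 CPM, and its difference of -3.70 ± 1.35 (SE) did not pass, with an edgeR adjusted p = 0.0932.

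**Figure D5:**
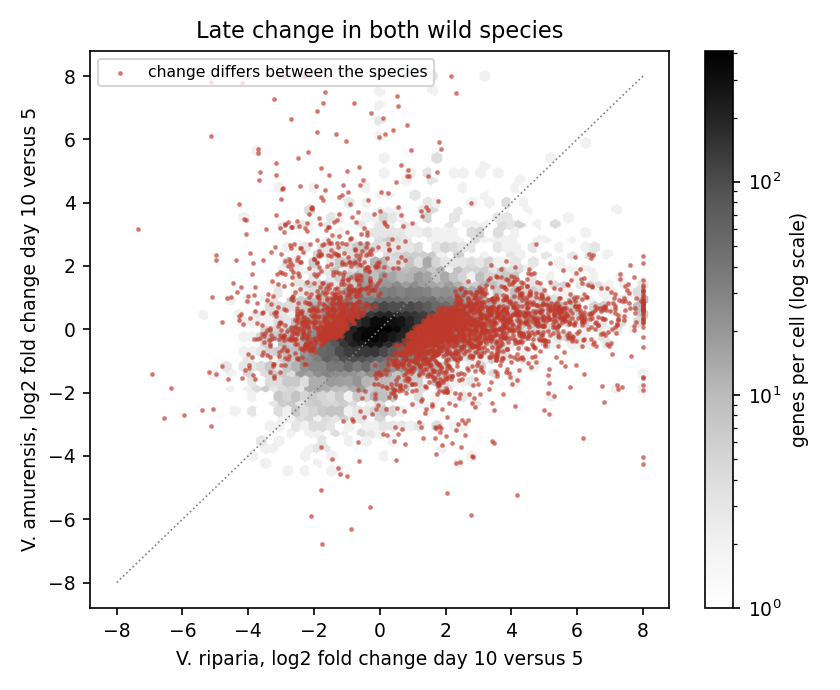
Log2 fold change from day 5 to day 10 in V. amurensis against that in V. riparia, as genes per cell (grey, log scale) with the 2769 genes whose change differs between the species in red. Values beyond 8 are drawn at 8. Many of the red genes lie far to the right near a V. amurensis change of 0.

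The domesticated grape, Vitis vinifera, entered the series as Cabernet Sauvignon and Riesling vines of a commercial vineyard. Their interval of equal length, day 12 against day 7, was set beside the V. riparia interval, and the days differ. Cabernet Sauvignon called 5400 of 19389 genes (27.9%), 3107 higher and 2293 lower. Among genes tested in both fits, 3574 were called in the same direction in both, with 27 opposite. This was 54.7% of the 6538 V. riparia late calls and 67.4% of the 5303 Cabernet Sauvignon calls. Of the genes that rose in V. riparia, 58% were called higher, where 16.2% of all genes were. Of those that fell, 50.3% were called lower, where 11.9% of all genes were. Riesling called 3313 of 19643 (16.9%), 2120 higher and 1193 lower. Among genes tested in both fits, 2432 were called in the same direction in both, with 14 opposite. This was 37.2% of the 6540 V. riparia late calls and 74.7% of the 3256 Riesling calls. Of the genes that rose in V. riparia, 42.7% were called higher in Riesling, where 11% of all genes were. Of those that fell, 30% were called lower, where 6.2% of all genes were. The change differed from that of V. riparia in 58 genes (0.299%) for Cabernet Sauvignon, with 28 (0.144%) more positive and 30 (0.155%) more negative in V. riparia. For Riesling it differed in 63 genes (0.321%), 24 (0.122%) more positive and 39 (0.199%) more negative. At an unadjusted p under 0.05 these were 2138 and 2878 genes, and DESeq2 called 359 and 717, so the small counts do not show that the genotypes changed alike. Leaving out single libraries moved them from 5 (without Cabernet Sauvignon day 7 replicate 1) to 111 (without day 12 replicate 2), and from 1 (without Riesling day 7 replicate 1) to 156 (without V. riparia day 10 replicate 3). All 4 named genes were called in the same direction in both cultivars. Vitvi07g00352 changed by 7.94 ± 0.64 in Cabernet Sauvignon and by 5.07 ± 0.47 in Riesling (log2, SE), and Vitvi18g02423 by -5.57 ± 0.86 and -3.40 ± 0.79.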

How the data were processed

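The authors deposited, gene-level counts as whole numbers, in 1 table a library. Its bookkeeping rows, which name no gene, stayed out of library sizes and tests. The submitters' processing notes name cutadapt, STAR, HTSeq and DESeq2 with no role or version. The genome build and annotation are not given in the sources used here. RNA came from pulverized buds by a Sigma plant kit, per the labels' protocols. Records outside annotated genes were 10.6% to 35.6% of a library on days 5 to 12 and those that aligned to several places 8.24% to 16.6%. Reads shared by near-identical genes or by overlapping genes cannot be traced from the counts.

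edgeR 4.0.16 (R 4.3.3) was used with TMM normalization, its expression filter and a quasi-likelihood test. Day was a factor over the 24 libraries of days 5 to 12 (replicates 1 to 3). A call is a Benjamini-Hochberg adjusted p under 0.05 over all genes tested. DESeq2 1.42.0 was the alternative. Other fits were made on the libraries named beside each result. Standard errors were derived from the F statistic. CPM values use the TMM library size, and log2 CPM a prior count of 2. V. amurensis and the cultivars were each fitted together with V. riparia days 5 and 10, so spread is shared there. The members and lists were chosen with earlier results of these data known, and the position scale was added after seeing the data. The named genes are the 2 largest rises and 2 largest falls among called genes whose log2 CPM averaged 3 or more over the 6 libraries, with at least 3 counts in each library and no overlap between days. The tests were tried on simulated counts.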

Additional observations from a re-analysis of the deposited data

Results flagged for a closer look

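Results in which the V. riparia change differed from that of another genotype, by a test of the difference itself, are listed here with their values. V. riparia and V. amurensis differed in how 2769 genes moved between days 5 and 10. Among the named genes, the difference (V. riparia minus V. amurensis, log2) was 7.17 for Vitvi07g00352, 7.01 for Vitvi18g00510 and -5.51 for Vitvi06g00561. The named genes were chosen for large changes in the same V. riparia libraries, and that choice favoured a large difference. The change differed from that of Cabernet Sauvignon, day 12 against day 7, in 58 genes, and from that of Riesling in 63 genes.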

How the results depend on the processing

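Over all results, 376 of 487 recomputed values stayed within 1.5 times the reported count or on the same side of the threshold, 111 moved further and 0 reversed. The 4 named genes kept their sign and their call in all 68 recomputed values, with a highest edgeR adjusted p = 0.0414. The late change of 6703 genes became 6727 with RLE size factors, 7635 with DESeq2, 5929 without a filter on low counts, 5582 with a covariate for the no-feature share, 5332 from the 6 libraries alone and 6820 with all V. riparia libraries. With only libraries of at most 25% no-feature share, which leaves day 5 with replicates 1 and 2, it was 4395. Same-numbered libraries of days 5 and 10 correlated at -0.439, 0.314 and -0.387 in their deviations, and only number 2 matched its own best, so the numbers are not read as pairs. With the replicate block the late change was 6508, day 12 against 10 gave 0, and the differences from Cabernet Sauvignon and Riesling gave 26 and 1. DESeq2 gave 2789 for V. amurensis, 12 for day 12 against 10, 359 and 717 for the differences from the cultivars, 2 for the mid-interval genes, and 4, 18, 58, 6, 1, 13 and 6 for the steps in order of day. The independent late change was 6613 at 2-fold or more. At most 25% no-feature share gave 0 for day 12 against 10, 0 for the steps to days 7 and 11, and 1 and 5 for the cultivars. With no filter these were 0 for day 12 against 10, 336 and 351 for the cultivars, and 2, 3, 0 and 1 for the steps to days 7, 8, 11 and 12. RLE gave 2 for the step to day 7. The no-feature covariate gave 1254 for the difference from V. amurensis and 6 for each cultivar. Without the 4 libraries that stood apart, an alternative chosen after seeing the data, V. amurensis gave 2974, day 12 against 10 and the step to day 11 gave 0, and the cultivars 136 and 210. For these the cause was not tested. Leaving out single libraries gave 4555 to 5855 for the late change, 8661 to 11509 for the independent one, 5244 to 6537 for the early one, 718 to 1499 for V. amurensis, 1799 to 2762 for the difference from it, 5 to 111 and 1 to 156 for the cultivars, 0 to 1 for day 12 against 10, and for the steps to days 7, 8 and 11 0 to 2, 0 to 5 and 0 to 6. The other steps and the mid-interval genes stayed at 0. The no-feature difference was -14.1 to -3.58 points. An arm left with 1 library is assumed to vary like the others. Depth limits scarce genes most at day 5.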
